A study of Rattus norvegicus with 74 samples.

Results

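The genes described here are the long non-coding RNA (lncRNA) genes that were abundant in rat red gastrocnemius muscle. They were chosen as genes with the biotype lncRNA in the deposited tables whose mean over the 30 muscle libraries was at least 5 CPM. CPM means counts per 1000000 nuclear-encoded counts, which are the counts on all genes outside the mitochondrial genome. This rule found 177 of 2488 lncRNA genes, among 30560 genes in all. The choice used the muscle levels themselves, so those levels are given as a description. Just inside the limit lay ENSRNOG00000066899 with a mean of 5.10 CPM, ENSRNOG00000066647 also with 5.10 CPM and ENSRNOG00000064974 with 5.08 CPM. Just outside lay ENSRNOG00000065797 with 5.00 CPM after rounding, ENSRNOG00000064716 with 4.92 CPM and ENSRNOG00000070673 with 4.91 CPM.

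The animals were wild-type male Wistar Kyoto rats, 9 weeks old when tissue was taken, and all drank water with 8% (v/v) deuterium oxide. The trained arm (ExT) ran on a motorised treadmill 5 days a week for 4 weeks from the age of 5 weeks, with 60 min a session at 20 m/min from the second week on, and the sedentary arm (Sed) spent the same time on a treadmill that stood still. The rats were killed 24 h after training ended. SM is whole tissue from the inner red part of the gastrocnemius, MT is mitochondria captured with antibodies from a fresh piece of that muscle and purified with RNase-A and proteinase-K, and LV is the wall of the left ventricle from some of the same rats. SM_Sed, SM_ExT, MT_Sed and MT_ExT held 15 libraries each, and LV_Sed and LV_ExT held 7 each, 1 library per rat and tissue. The 30 SM rats fall into rats numbered 2 to 16 (14 rats) and rats numbered 17 to 32 (16 rats), with equal arms in each range, and 12 of the 14 LV rats belong to the later range. The labels do not call these ranges batches. The study's question is whether mitochondria of muscle hold RNA from nuclear genes, and whether training changes it.

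Long non-coding RNAs are long transcripts that are not translated into a known protein. Some act in the nucleus on chromatin or splicing, some act in the cytoplasm on mRNAs and microRNAs, and some host small RNAs in their introns. In skeletal muscle, lncRNAs such as H19 take part in the formation of fibres, and a few transcripts first listed as non-coding turned out to encode very short membrane proteins. A biotype in a gene table is a statement of the annotation, which can change between releases, and a locus listed as lncRNA can be a transcript of a protein-coding gene without a recognised reading frame.

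The biotype lncRNA differs from RefSeq's for most members that could be matched by name. Only 25 of the 177 members carry a symbol, and 152 are known here by their Ensembl identifier alone. RefSeq (assembly GRCr8), matched by symbol, lists 21 of the 25 as protein-coding and 1, Lnc134, as lncRNA. The other 3 (AC096301.1, Nupr1l1 and AABR07039328.2) had no match. The 21 include the most abundant members, so the set is best read as genes with this biotype in the tables and not as non-coding RNAs in general. Conversely, H19 carries the biotype protein_coding in these tables and is no member, although its SM level ran from 1735 CPM through a median of 2636 CPM to 3968 CPM. Of 91 symbols of known lncRNAs and their neighbours listed for this work, 12 were found in the tables, none with the biotype lncRNA. Malat1, Neat1, Meg3 and the Snhg genes are thus not described here under those names.

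For 11 of the 25 symbols the tables hold a further row of the same name. In 3 of them, Rpl30, Gid4 and Lsm6, a further row is protein_coding. Gid4, a substrate receptor of an E3 ubiquitin ligase, had a mean of 28.9 CPM in SM in its lncRNA row and 34.8 CPM in its protein_coding row. Rpl30, a protein of the large ribosomal subunit, had 40.1 CPM in its lncRNA row and 11.6 CPM in the higher of its protein_coding rows. How counts were shared between such rows, between overlapping genes and between strands is not given in the sources used here, so values of these genes are uncertain. Gene lengths were not used, so CPM compares a gene between libraries and does not rank genes by transcripts per cell.

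Depth set what could be seen. SM libraries held 19477976 to 39401323 counts, MT libraries 530397 to 9988027 and LV libraries 54645657 to 75758777. A count of 3, taken as the smallest signal a library can show, equals 0.115 to 0.226 CPM for SM, 2.84 to 6.97 CPM for MT and 0.0713 to 0.101 CPM for LV. All 177 members averaged at least 10 counts per library in SM, 138 did in MT and 170 did in LV. Fast-fibre markers (Myh4, Mylpf and others, 4 of 5 in the tables) summed to 45797 to 125036 CPM in SM and to 1.96 to 5.49 CPM in LV, whereas 8 cardiomyocyte markers summed to 50352 to 63331 CPM in LV and to 144 to 1551 CPM in SM. These markers fit the labels of SM and LV. In bulk tissue, fewer cells of a type and less RNA per cell cannot be told apart.

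The members held a small share of the RNA, which was highest in LV. In SM_Sed they took 0.553% ± 0.0226 (SD, n = 15) of nuclear-encoded counts, in SM_ExT 0.556% ± 0.0205 (SD, n = 15). In MT_Sed the share was 0.605% ± 0.0293 (SD, n = 15), and in LV_Sed it was 0.762% ± 0.0147 (SD, n = 7). Every LV library, from 0.710% to 0.781%, lay above every SM library, from 0.503% to 0.604%. Protein-coding genes of the same SM limit were also higher in LV on this scale. Their median ratio LV over SM in Sed rats was 1.40, against 1.60 for the members. The LV libraries were made with another kit and RNA input, so tissue and kit cannot be told apart. What differed far more was the rest of the lncRNA class. The 2311 other lncRNA genes took 0.0722% ± 0.00591 (SD, n = 15) in SM_Sed and 5.60% ± 0.267 (SD, n = 15) in MT_Sed. Members, which the rule takes from the high end of SM, made up 88.5% ± 0.590 (SD, n = 15) of all lncRNA counts in SM_Sed, 9.75% ± 0.295 (SD, n = 15) in MT_Sed and 83.2% ± 0.317 (SD, n = 7) in LV_Sed. The members' share in SM, and the low share of the other lncRNA genes there, follow from the choice of members. No comparison is drawn from them. In MT, genes of odorant and vomeronasal receptors, which muscle is not known to use, also stood high, with 1.66% ± 0.164 (SD, n = 15) of nuclear-encoded counts in MT_Sed against 0.00117% ± 0.000190 (SD, n = 15) in SM_Sed. Their part in the MT values was not tested.

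**Figure D1:**
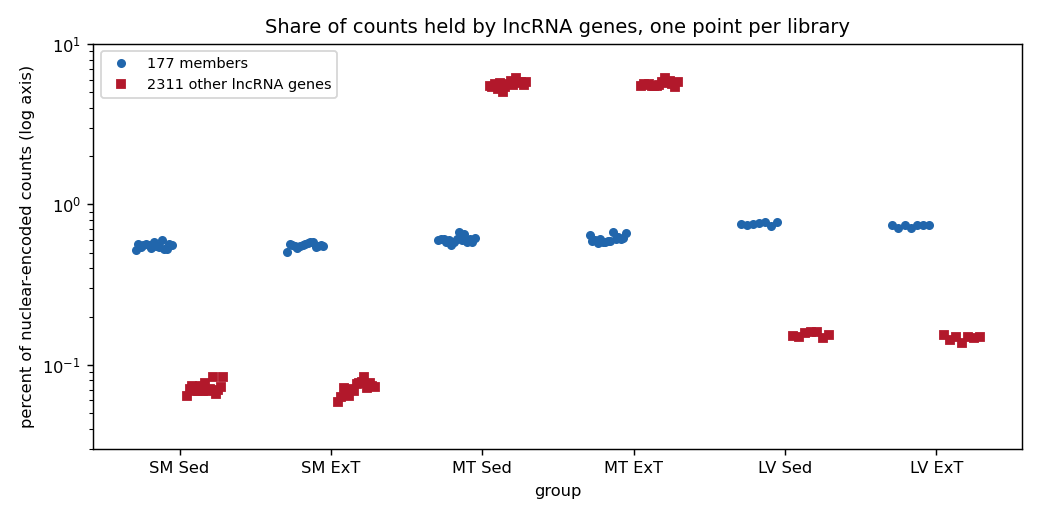
Percent of nuclear-encoded counts (log axis) held by the 177 members (circles) and by the 2311 other lncRNA genes (squares), 1 point per library in each of the 6 groups. The members stay near 0.5% to 0.8% everywhere. The other lncRNA genes, which are low in SM by the rule, lie under 0.1% in SM and above 5% in MT.

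Among the members, counts in SM were concentrated in a few genes. The 12 highest took 43.4% ± 1.25 (SD, n = 15) of the members' counts in SM_Sed, 10.8% ± 1.14 (SD, n = 15) in MT_Sed and 27.9% ± 1.00 (SD, n = 7) in LV_Sed. Over all members the median of the mean levels was 13.1 CPM in SM, against 24.8 CPM for MT and 22.5 CPM for LV. The 4 of the 12 highest that carry symbols are given first, by what their proteins do.

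Selenow was the highest member. It encodes selenoprotein W, a small selenium-containing redox protein that is abundant in muscle. In SM_Sed its level ran from 506 CPM through a median of 714 CPM to 846 CPM, and in SM_ExT from 476 through 634 to 761 CPM. In MT_Sed it ran from 22.3 through 42.3 to 60.1 CPM, and in LV_Sed from 31.7 through 41.7 to 45.3 CPM. Every SM library was above every MT and LV library. Gpx3, the other selenoprotein among the members, encodes the secreted glutathione peroxidase. It ran from 33.5 through 64.1 to 97.8 CPM in SM_Sed and from 50.7 through 70.9 to 88.7 CPM in LV_Sed, ranges that overlapped.

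Atp5mc1 encodes the c subunit of the membrane ring of mitochondrial ATP synthase. It ran from 197 through 285 to 349 CPM in SM_Sed, and from 263 through 347 to 532 CPM in SM_ExT. In LV_Sed it ran from 747 through 862 to 891 CPM, above every SM library. In MT_Sed it ran from 21.1 through 33.1 to 48.2 CPM, below every SM library. Thus Selenow and Atp5mc1 were both low in MT and lay on opposite sides of SM in LV. Micos10, a core subunit of the complex that shapes the cristae of the inner mitochondrial membrane, ran from 105 through 142 to 170 CPM in SM_Sed, from 31.6 through 39.9 to 60.6 CPM in MT_Sed and from 51.1 through 55.3 to 57.5 CPM in LV_Sed. The symbol Mrpl52, a protein of the large mitochondrial ribosomal subunit, was lower, at 12.6 through 16.9 to 21.2 CPM in SM_Sed and 30.3 through 33.2 to 36.4 CPM in LV_Sed.

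The bases before the annotated starts of Selenow and Atp5mc1 are printed because these are the most abundant members and differed in opposite directions in LV, and those of Lnc134 because RefSeq also lists it as lncRNA. Each is the 150 bases that end just before the RefSeq start in GRCr8, 5′ to 3′ on the gene's strand. Capitals mark matches on either strand to 7 motifs. These were the TATA box as TATAAA, the CCAAT box as CCAAT, the GC box as GGGCGG, the E-box as CANNTG, the cyclic AMP response element as TGACGTCA, the ETS motif as GGAAGT, and the MEF2 motif. Overlapping matches run together, and the capitals CCAATTGG in Atp5mc1 hold CCAAT on each strand and an E-box.
Selenow: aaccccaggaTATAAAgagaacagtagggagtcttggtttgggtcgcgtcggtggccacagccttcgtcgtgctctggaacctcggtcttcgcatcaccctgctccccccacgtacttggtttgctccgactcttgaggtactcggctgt
Atp5mc1: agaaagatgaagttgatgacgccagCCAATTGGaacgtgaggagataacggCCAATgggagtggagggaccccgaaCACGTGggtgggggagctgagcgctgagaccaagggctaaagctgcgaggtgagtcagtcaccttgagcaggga
Lnc134: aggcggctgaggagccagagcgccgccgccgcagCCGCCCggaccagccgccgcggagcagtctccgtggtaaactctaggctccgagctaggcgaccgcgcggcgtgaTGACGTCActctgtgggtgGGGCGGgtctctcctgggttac

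Selenow had 1 match to the TATA box motif, with its first letter 140 bases before the start. Atp5mc1 had 3 matches to the CCAAT box and 2 to the E-box. Lnc134 had 2 matches to the GC box and 1 to the cyclic AMP response element. Over 33469 RefSeq promoters of the same length, 8.00% held the TATA box, 23.5% the CCAAT box, 26.02% the GC box and 46.6% the E-box. The cyclic AMP response element was in 1.36%, the ETS motif in 13.4% and the loose MEF2 form in 1.91%. Of the 18 members with a RefSeq promoter, 2 held the TATA box, 3 the CCAAT box, 7 the GC box and 6 the E-box. The cyclic AMP response element was in 3 (Tspyl1, Snapc5 and Lnc134), the ETS motif in 6 and the loose MEF2 form in 0. A match is a run of letters and not a shown binding site. Lnc134 itself was near the lower limit of the set, at 5.88 through 6.64 to 8.60 CPM in SM_Sed, 9.25 through 23.6 to 33.5 CPM in MT_Sed and 9.82 through 11.2 to 12.7 CPM in LV_Sed. In RefSeq its neighbours are Adipor1, an adiponectin receptor, and Klhl12, an adaptor of a ubiquitin ligase.

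Other named members are known for modifying or handling proteins. Ubl3, Sumo3, Urm1 and Ufm1 are symbols of ubiquitin-like proteins, which are attached to other proteins or, for Ubl3, to membranes. In SM_Sed, Ubl3 ran from 65.8 through 72.4 to 85.4 CPM, Sumo3 from 36.1 through 45.5 to 50.2 CPM, Urm1 from 10.0 through 13.6 to 16.8 CPM and Ufm1 from 7.51 through 10.5 to 13.8 CPM. Ubl3, Sumo3 and Urm1 overlapped between SM_Sed and LV_Sed. Ufm1 did not, with 23.8 through 26.2 to 28.8 CPM in LV_Sed. Sumo3, Urm1 and Ufm1 each have a further lncRNA row of the same symbol, which averaged at most 0.0227 CPM in SM for Sumo3 but 24.8 CPM in MT, and 0.00723 CPM in SM but 15.8 CPM in MT for Ufm1.

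Symbols of RNA-handling proteins form a further group. Rpl30 ran from 31.9 through 39.3 to 57.4 CPM in SM_Sed and from 124 through 142 to 153 CPM in LV_Sed, without overlap. Lsm6, a subunit of the ring that binds the ends of U6 RNA and of decaying mRNAs, ran from 12.1 through 13.4 to 15.6 CPM in SM_Sed and from 61.0 through 80.1 to 101 CPM in MT_Sed. Snapc5, a subunit of the factor that starts transcription of small nuclear RNAs, ran from 6.87 through 9.19 to 10.6 CPM in SM_Sed. Mafk, a small Maf transcription factor, ran from 23.8 through 35.6 to 49.7 CPM in SM_Sed. The remaining symbols, among them Lemd2 of the inner nuclear membrane, Bloc1s6 of the complex for lysosome-related organelles and Cdc42se1, which binds CDC42, had SM means between 8.88 and 40.2 CPM together with Tmem230, Tspyl1, Pdrg1, Tcim, Nupr1l1, Snapc5 and the clone-named AC096301.1 and AABR07039328.2.

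The other 8 of the 12 highest members have no symbol. ENSRNOG00000063350 ran from 212 through 260 to 299 CPM in SM_Sed, ENSRNOG00000062617 from 157 through 214 to 253 CPM, ENSRNOG00000071138 from 131 through 176 to 240 CPM and ENSRNOG00000070562 from 148 through 170 to 189 CPM. ENSRNOG00000068480 ran from 78.4 through 107 to 153 CPM, ENSRNOG00000065676 from 75.6 through 93.1 to 154 CPM, ENSRNOG00000065603 from 63.7 through 84.0 to 103 CPM and ENSRNOG00000069594 from 52.3 through 79.7 to 125 CPM. Across tissues they took different courses. In LV_Sed the medians were 95.2 CPM for ENSRNOG00000063350, 263 CPM for ENSRNOG00000071138, 300.3 CPM for ENSRNOG00000068480 and 0 for ENSRNOG00000062617. ENSRNOG00000069594 was the only 1 of the 12 that stood higher in MT than in SM in every library, with 236 through 266 to 301 CPM in MT_Sed.

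**Figure D2:**
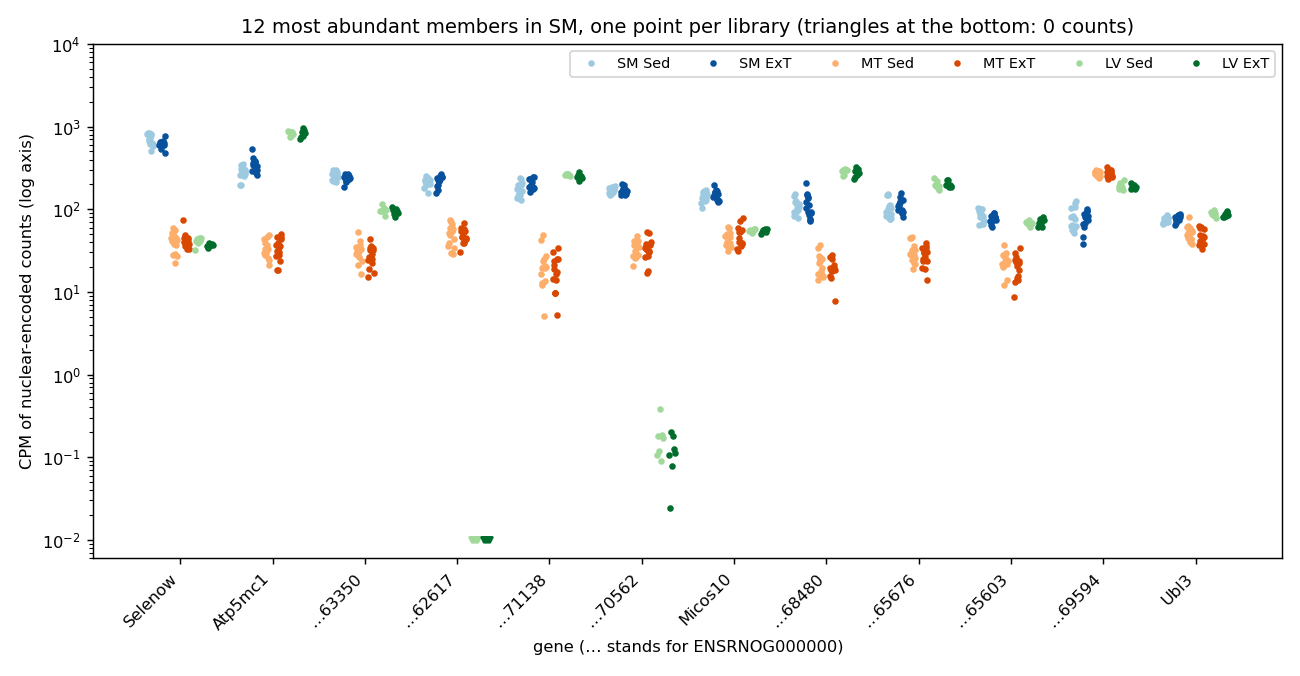
Level in CPM of nuclear-encoded counts (log axis) of the 12 members with the highest SM mean, 1 point per library, coloured by group. All SM libraries lie above all MT libraries for 10 of the 12, the exceptions being ENSRNOG00000069594, which is higher in MT, and Ubl3, where the ranges overlap; ENSRNOG00000062617 has 0 counts in every LV library (triangles).

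The spread over the 30 SM libraries differed widely among members. The coefficient of variation (SD over mean) had a median of 17.2% over the 177 members, from 6.70% to 54.7%. Over the 9579 other nuclear-encoded genes with a mean of at least 5 CPM the median was 14.4%, but those genes were higher in SM, with a median of 24.3 CPM against 13.1 CPM, so these spreads are not compared. ENSRNOG00000066866 varied least, from 29.8 through 35.9 to 43.4 CPM. ENSRNOG00000069472 varied most, from 3.23 through 5.69 to 21.6 CPM, and its highest library alone stood far from the median. These 2 were chosen after their values were seen.

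Training was compared first in SM, with edgeR's quasi-likelihood test on the counts and Benjamini-Hochberg adjustment over all genes tested. Here no member passed an adjusted p of 0.05. All 177 were tested, and 0.206% of the 13570 genes tested passed. At an unadjusted p under 0.05 there were 21 members, or 11.9%, against 13.7% of all genes tested. The members' log2 fold changes (ExT over Sed) ran from -0.45 to 0.28 with a median of -0.06, and the median of all genes was -0.01. By DESeq2, 1 member passed, where 0.965% of genes did, and 21 had an unadjusted p under 0.05, where 14.1% did.

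The member with the smallest adjusted p was ENSRNOG00000065916, named after its values were seen. Its SM_Sed libraries ran from 5.44 through 7.74 to 10.6 CPM and its SM_ExT libraries from 1.94 through 5.94 to 9.25 CPM, so that the arms overlapped. The log2 fold change was -0.45 (SE 0.12, n = 15 and 15) with an edgeR adjusted p of 0.0974, and DESeq2 gave -0.45 with an adjusted p of 0.0356. For Selenow the log2 fold change was -0.24 (SE 0.08) with an edgeR adjusted p of 0.207. For Atp5mc1 it was 0.26 (SE 0.08) with an edgeR adjusted p of 0.139, and for Sumo3 -0.20 (SE 0.06) with 0.121. In each of these the arms overlapped. Selenow, Atp5mc1 and Sumo3 also followed the fibre markers, as given further on.

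The rat ranges gave different counts in SM. Among rats 2 to 16 alone, with 7 rats an arm, 4 members passed the edgeR threshold, where 2.95% of 13423 genes tested did, and 44 (24.9%) had an unadjusted p under 0.05, where 23.2% did. These were ENSRNOG00000062369 with a log2 fold change of -0.60 (adjusted p = 0.0163), Selenow with -0.39 (0.0428), Atp5mc1 with 0.43 (0.0432) and Sumo3 with -0.27 (0.0426). Selenow ran there from 615 through 808 to 846 CPM in Sed and from 535 through 624 to 660 CPM in ExT, and Atp5mc1 from 197 through 283 to 348 CPM in Sed and from 289 through 362 to 532 CPM in ExT. In both the arms still overlapped. Among rats 17 to 32 alone, with 8 rats an arm, no member passed, where 0.00732% of 13662 genes did, and 8 members (4.52%) had an unadjusted p under 0.05 by edgeR, where 6.02% of genes did. At an unadjusted p the members' shares thus lay near those of all genes in both ranges. Selenow in rats 17 to 32 had a log2 fold change of -0.08 with an edgeR adjusted p of 0.945, and medians of 630 CPM in Sed and 652 CPM in ExT. The difference of the training effect between the ranges, tested as an interaction term by edgeR, passed for 0% of 13570 genes, with 36 members (20.3%) and 13.3% of all genes at an unadjusted p under 0.05. The fibre markers also differed between the arms among rats 2 to 16, by value. The index of fast minus slow fibre markers (log2) was 3.37 ± 1.32 (SD, n = 7) in Sed and 1.77 ± 0.610 (SD, n = 7) in ExT among rats 2 to 16, and 2.37 ± 1.06 (SD, n = 8) and 2.37 ± 0.984 (SD, n = 8) among rats 17 to 32. Its part in the training values was not tested.

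In MT, 138 members passed the filter on low counts, and none of them passed an edgeR adjusted p of 0.05, as for 0% of all 19281 genes tested. At an unadjusted p under 0.05 there were 4 members, or 2.90%, against 4.73% of all genes. The member with the smallest p was ENSRNOG00000065870, with a log2 fold change of 0.47 (SE 0.18) and an edgeR adjusted p of 1.00. For Atp5mc1 the MT log2 fold change was 0.04 (SE 0.14). By DESeq2 no member passed either, as for 0% of genes, and 4 had an unadjusted p under 0.05, where 4.63% of genes did.

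In LV, 169 members were tested, and none passed by edgeR, as for 0% of 14488 genes. There were 10 members, or 5.92%, at an unadjusted p under 0.05, against 5.9% of all genes, and none passed by DESeq2, where 0.0069% of genes did, again with 10 at an unadjusted p under 0.05, where 6.43% did. ENSRNOG00000063760 had the smallest p. It ran from 1.98 through 2.25 to 3.41 CPM in LV_Sed and from 2.46 through 3.43 to 3.78 CPM in LV_ExT, with a log2 fold change of 0.48 (SE 0.13) and an edgeR adjusted p of 0.804. Selenow had a log2 fold change of -0.10 (SE 0.06) and Atp5mc1 one of 0.04 (SE 0.08). The training effect was then compared between tissues through an interaction term. No member passed between MT and SM, where 0.0181% of 27684 genes did, or between LV and SM, where 0% of 15049 did. At an unadjusted p under 0.05 by edgeR there were 10 members in the first, against 8.5% of all genes, and 2 in the second, against 4.57%. DESeq2 passed no member in either, where 0.116% and 0.00664% of genes passed, and had 12 and 4 members at an unadjusted p under 0.05, where 7.35% and 5.2% of genes were.

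**Figure D3:**
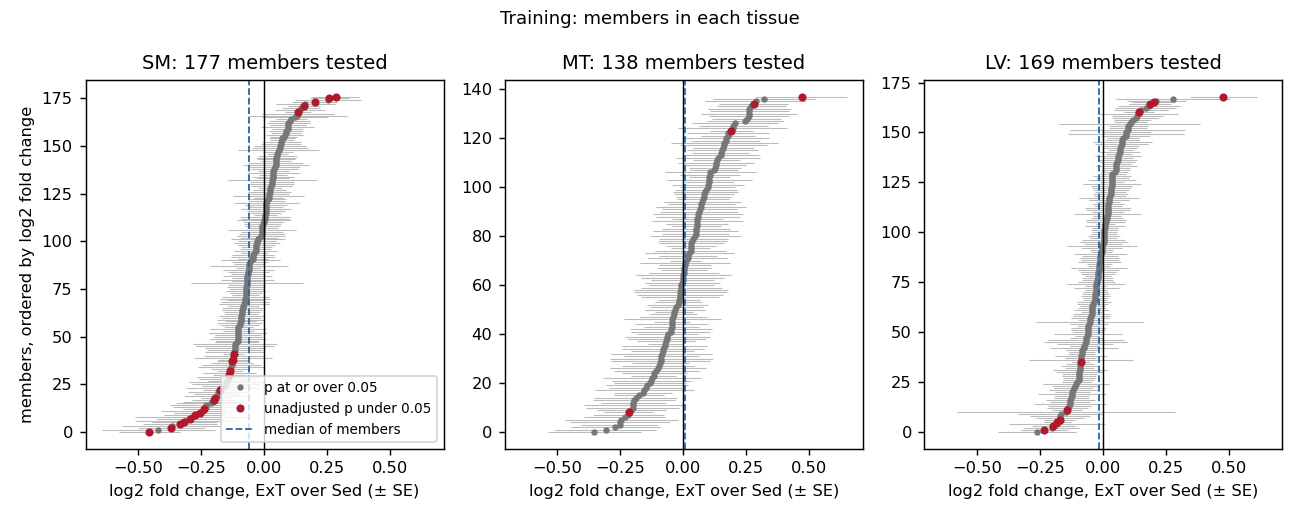
Log2 fold change of ExT over Sed with its SE for each member tested in SM (177), MT (138) and LV (169), ordered by size, with members at an unadjusted p under 0.05 in red. The dashed line, the median of the members, lies at -0.06 in SM and near 0 in MT and LV, and no member passes after adjustment by edgeR.

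The levels in MT were next set against those in SM. These are descriptions, since the members were chosen for their SM level, the denominator of the ratio. A low ratio relative to all genes follows in part from that choice. The 22842 genes tested here include many that are low in SM, where 13570 genes passed the filter. Selenow and Atp5mc1, the highest in SM, were among the 4 members with the lowest ratio. On the TMM scale of edgeR the median log2 ratio MT over SM in Sed rats was -1.40 for the members and 1.81 for all 22842 genes tested, a difference of -3.21. Only 2 of 177 members lay above the median of all genes. Protein-coding genes chosen by the same SM limit (9506 genes) had a median of -2.98 relative to all genes, near that of the members. The other lncRNA genes had 5.14, over the 2045 of 2311 that passed the filter on low counts. They lie under the SM limit by the rule, so their high ratio follows in part from that choice. Nothing is read from it about lncRNA genes as a class. In ExT rats the members' median was -1.28, or -2.59 relative to all genes.

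The sign of the members' median depends on the scaling. With library totals as the scale it was 0.19 in Sed rats, with all genes at 3.43, and the position relative to all genes was then -3.24. In CPM of nuclear-encoded counts, 59 members lay higher in every MT_Sed library than in every SM_Sed library, where 74.3% of the genes tested did, and 21 lay lower, where 5.78% did. In CPM of all counts the first of these numbers was 1, where 47.8% of genes were higher, and the second was 23, where 6.46% were lower. In ExT rats 65 members were higher, where 71.2% of the genes tested were, and 24 were lower, where 6.55% were. Of the 21 members that were lower in Sed rats, 20 were lower without overlap in ExT rats too, which is 95.2% of the Sed list and 83.3% of the ExT list, and the 2 arms are different rats. Those 20 included 10 of the 12 highest in SM, all but ENSRNOG00000069594 and Ubl3, and also Gid4.

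The lowest MT level relative to SM was that of ENSRNOG00000070065. It ran from 49.9 through 78.7 to 107 CPM in SM_Sed, and in MT_Sed from 0 through 3.72 to 6.20 CPM, which is 38 counts in all over 15 libraries and 0 in 2 of them. In CPM of nuclear-encoded counts its SM level was 22.5-fold that in MT (95% counting interval 16.4 to 31.9). For Selenow the same ratio was 16.99-fold (15.5 to 18.6) and for Atp5mc1 8.43-fold (7.61 to 9.35). It was 8.33-fold (7.34 to 9.50) for ENSRNOG00000071138 and 8.28-fold (7.45 to 9.22) for ENSRNOG00000063350. Such intervals cover counting error only. On the TMM scale the members' log2 ratios MT over SM in Sed rats ran from -6.62 to 2.12, so the folds depend on the scale. At the other end, ENSRNOG00000066582 ran from 2.86 through 6.04 to 10.1 CPM in SM_Sed and from 67.8 through 123 to 157 CPM in MT_Sed. ENSRNOG00000067004, ENSRNOG00000070985 and ENSRNOG00000066647 followed, with MT_Sed medians of 96.8, 107 and 64.7 CPM against SM_Sed medians of 5.88, 7.67 and 4.39 CPM. Relative to the median of all genes these 4 lay between -0.29 and 0.31 (log2), near the middle of all genes tested.

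The order of members in MT had little in common with their order in SM. Over the 177 members, Spearman's rho of the mean levels was 0.20 between SM and MT and 0.57 between SM and LV, with 0.25 and 0.75 over the 9506 protein-coding genes of the same SM limit. These are descriptions across genes, which share gene length and libraries. The middle part of the members' MT means lay between 15.3 and 42.7 CPM. Further rows of members' symbols differed among themselves. Selenow's further row averaged 0.0367 CPM in SM and 13.1 CPM in MT, and that of Atp5mc1 0.0140 CPM in SM and 16.2 CPM in MT. The protein_coding row of Gid4 was lower in MT, with 34.8 CPM in SM and 22.9 CPM in MT. So was the higher protein_coding row of Rpl30, with 11.6 CPM in SM and 2.26 CPM in MT.

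**Figure D4:**
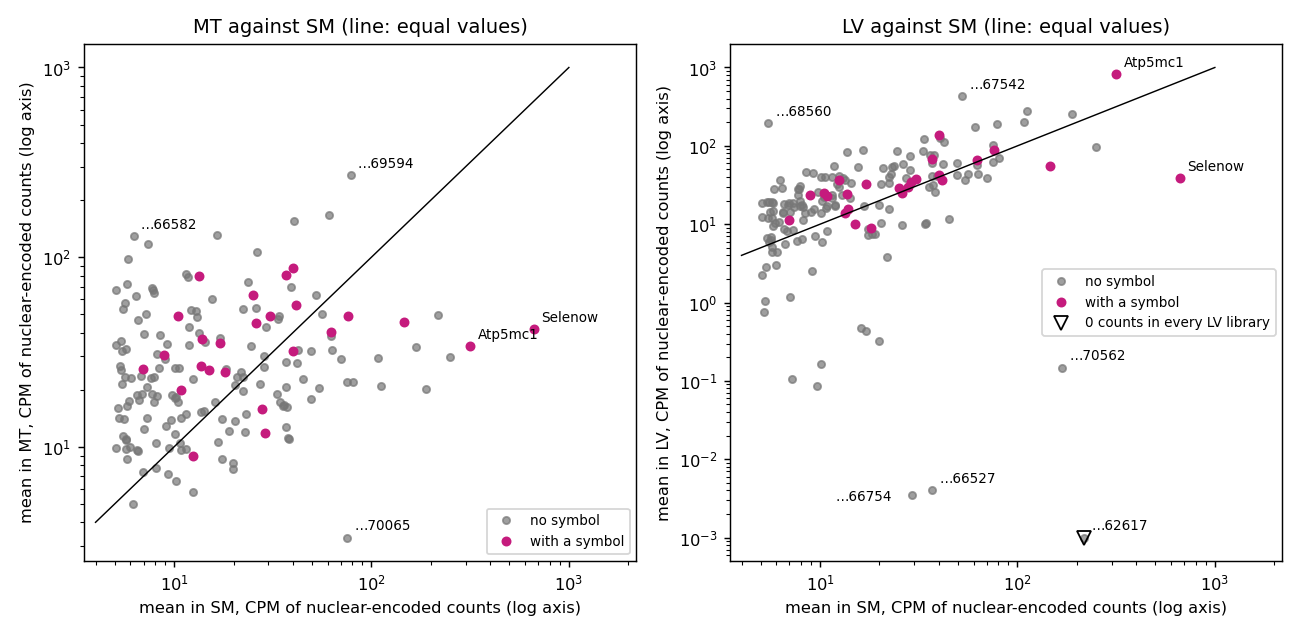
Mean level of each member in MT (left) and LV (right) against its mean in SM, all in CPM of nuclear-encoded counts on log axes, with a line of equal values and members with a symbol in colour. In MT the points lie flat, with Selenow and Atp5mc1 far below the line. In LV the points spread on both sides of the line, and a few lie orders of magnitude below it.

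In the heart most members were present, and a few were nearly absent. In Sed rats 71 of 177 members (40.1%) had an LV mean over 2 times the SM mean of the same 7 rats, 29 (16.4%) had one under 0.5 times and 77 lay between. Among the 9506 protein-coding genes of the same SM limit, whose median SM level was higher at 24.3 CPM, these shares were 25.2% and 10.7%. Without overlap between the libraries, 99 members were higher in LV, where 49.5% of 14367 genes tested were, and 35 were lower, where 15.1% were. In ExT rats the numbers were 93 and 36, where 46.4% and 16.7% of genes were, and 92 of the higher and 34 of the lower members were shared by both arms. The median log2 ratio LV over SM on the TMM scale was 0.12 for members and 0.04 for all genes in Sed rats. In CPM of nuclear-encoded counts the median ratio was higher, 1.60 for members and 1.40 for the protein-coding genes, so a member can stand higher in LV in CPM and not on the TMM scale, as ENSRNOG00000071138 did with a log2 ratio of 0.06. In CPM of all counts, 76 members (42.9%) were higher without overlap in Sed rats, where 36.2% of genes were, and 45 (25.4%) were lower, where 21.4% were. The LV libraries were made with another kit and from 100 ng of RNA in place of 50 ng, and tissue and kit cannot be told apart.

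In LV, 8 members averaged under 15 counts per library, or 4.52% of the set, against 0.999% of the protein-coding genes of the same limit. ENSRNOG00000062617 had 0 counts in all 14 LV libraries. Its SM level in the same rats averaged 225 CPM, from 157 to 267 CPM, which is at least 2749-fold higher, with 3 counts per LV library as the floor. The gene was found in all 30 MT libraries, with 14 to 74 counts each. ENSRNOG00000066527 had 2 counts over all LV libraries, both in 1 library, against 35.2 CPM in SM of the same rats, a ratio of 9096 (95% counting interval 2518 to 75108). ENSRNOG00000066754 had 2 counts, again in 1 library, against 29.5 CPM, a ratio of 7616 (2108 to 62891). These 2 ratios use counts summed over the 14 libraries and cannot be ranked against the bound before them. Set against that same floor of 3 counts per LV library, the SM levels of the 2 genes were 430 and 360 times as high.

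ENSRNOG00000070562 had 1 to 14 counts in each LV library against a mean of 173 CPM in SM of the same rats, a ratio of 1194 (952 to 1518). It was among the steadiest members in SM, with a coefficient of variation of 8.29%. The other 4 were lower in SM: ENSRNOG00000058324 with 17.7 CPM and a ratio of 56.5 (48.4 to 66.3), ENSRNOG00000063006 with 9.88 CPM and 61.5 (49.6 to 77.2), ENSRNOG00000066049 with 8.99 CPM and 103 (77.2 to 142), and ENSRNOG00000066873 with 7.203 CPM and 65.3 (50.4 to 86.2). ENSRNOG00000058324, ENSRNOG00000063006, ENSRNOG00000066049 and ENSRNOG00000066873 were named after their values were seen. H19, no member, stood beside them with a mean of 2771 CPM in SM and 9.17 CPM in LV. These intervals cover counting error only.

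At the other end, ENSRNOG00000068560 ran from 3.27 through 5.37 to 7.27 CPM in SM_Sed and from 199 through 201 to 206 CPM in LV_Sed, with a log2 ratio of 4.66 in Sed and 4.64 in ExT rats. It was the only member whose LV mean exceeded 10 times its SM mean in either arm. ENSRNOG00000067542 followed, from 35.8 through 50.5 to 61.8 CPM in SM_Sed to 397 through 440 to 457 CPM in LV_Sed, a log2 ratio of 2.55. ENSRNOG00000064648 had a log2 ratio of 2.18 and ENSRNOG00000066582 one of 1.89. Selenow, with a log2 ratio of -4.57 in Sed and -4.58 in ExT rats, was the lowest of the members with a symbol. Atp5mc1 had 0.92 and 0.84, Rpl30 1.18 and 1.41, and Micos10 -1.98 and -1.86.

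Levels within SM were next set against the fibre makeup of the piece. Red gastrocnemius mixes fast and slow fibres, and the share differs between pieces. An index was taken as the mean log2 level of fast-fibre markers minus that of slow-fibre markers, and each gene's slope on it was fitted by edgeR over the 30 SM libraries, with arm and rat range in the model. This fit was added after the data had been seen. In it 53 of 177 members (29.9%) passed an edgeR adjusted p of 0.05, where 22.5% of 13570 genes did. Of these, 40 were higher with more fast-fibre signal, where 10.8% of genes were, and 13 were lower, where 11.7% were. In 2 subsets of the libraries the members' share over both directions was near that of all genes. Without the 2 libraries farthest from the median index 26 members (14.7%) passed, where 13.7% of genes did. In rats 17 to 32 alone 9 members (5.08%) passed, where 4.71% of genes did. The third subset, rats 2 to 16 alone, gave 23 members (13%), where 8.74% of genes passed. In the order given, 23, 8 and 21 of them were higher with more fast-fibre signal, where 5.85%, 1.9% and 3.75% of genes were.

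The steepest rises, named after their values were seen, were those of ENSRNOG00000067856 and ENSRNOG00000065096. ENSRNOG00000067856 ran from 9.52 to 38.9 CPM over the SM libraries, with a slope of 0.46 log2 per unit of the index (SE 0.04) and an edgeR adjusted p of 9.4e-10. ENSRNOG00000065096 ran from 38.5 through 58.4 to 98.6 CPM, with a slope of 0.36 (SE 0.03) and an edgeR adjusted p of 5.9e-13. Both passed in each rat range alone. ENSRNOG00000070065, the member lowest in MT relative to SM, had a slope of 0.26 (SE 0.03) and an edgeR adjusted p of 4.4e-07. Selenow rose with the index, with a slope of 0.18 (SE 0.02) and an edgeR adjusted p of 8.3e-07, and so did Sumo3, with 0.11 (SE 0.02) and 7.7e-06, each also in either rat range alone. Atp5mc1 fell, with a slope of -0.13 (SE 0.03) and an edgeR adjusted p of 0.00122, but had -0.08 and 0.404 among rats 17 to 32 alone. Whether the index accounts for their training values was not tested. Falls were also seen for ENSRNOG00000062345, which ran from 2.54 through 9.57 to 18.9 CPM with a slope of -0.32 (SE 0.08, adjusted p = 0.00516 by edgeR), and among the 12 highest for ENSRNOG00000065676 with -0.14 (SE 0.04, adjusted p = 0.0171) and ENSRNOG00000068480 with -0.14 (SE 0.04, adjusted p = 0.00348). These 3 did not pass without the 2 libraries farthest from the median index, with slopes of -0.25, -0.15 and -0.11. In LV, where fast-fibre markers were near 0, ENSRNOG00000067856 averaged 10.3 CPM and ENSRNOG00000065096 57.0 CPM. In CPM the second was thus near its SM level. On that scale protein-coding genes of the same SM limit had a median ratio LV over SM of 1.40 in Sed rats, and the kit differed.

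A second index, of endothelial markers, gave 45 members by edgeR, where 12.9% of genes passed. In 3 of them the slope was positive, where 6.67% of genes were called in that direction, and in 42 it was negative, where 6.19% were. Tcim, a regulator of transcription and cell growth, had the largest positive slope, 1.17 (SE 0.20, adjusted p = 0.000140 by edgeR), and ran from 4.49 through 10.3 to 20.8 CPM. ENSRNOG00000071138 had 0.43 (SE 0.08, adjusted p = 0.000249) and ENSRNOG00000067542 0.29 (SE 0.09, adjusted p = 0.0349). The largest negative slope was that of ENSRNOG00000069181, which ran from 2.64 through 6.25 to 16.9 CPM, at -1.42 (adjusted p = 0.00227 by edgeR), and Selenow had -0.58 (SE 0.11, adjusted p = 0.000499). ENSRNOG00000067542 did not pass without the 2 libraries farthest from the median index, with 0.21 and an edgeR adjusted p of 0.271, or in either rat range alone, with adjusted p-values of 0.177 and 0.358. Tcim, ENSRNOG00000071138 and Selenow did not pass in rats 2 to 16 alone, with edgeR adjusted p-values of 0.177, 0.114 and 0.156, and ENSRNOG00000069181 passed in neither range, with 0.0648 and 0.159. In the ranges alone 4 members, where 0.492% of genes did, and 9 members, where 2.94% did, passed on this index. In CPM, ENSRNOG00000071138 and ENSRNOG00000067542 also stood higher in LV_Sed than in every SM_Sed library. This was common and does not set these 2 apart. Between LV and SM of the same Sed rats, 99 members (55.9%) were higher in LV without overlap, where 49.5% of genes tested were. On the TMM scale ENSRNOG00000071138 was near its SM level, as given above. Endothelial markers summed to 1016 to 1333 CPM in LV_Sed against 399 to 929 CPM in SM_Sed. Whether the endothelial markers bear on these 2 members was not tested. Of the 45 members, 30 were also among the 53 called with the fibre index, which is 66.7% of the first list and 56.6% of the second.

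Over the 30 SM libraries the fibre and endothelial indices had a Pearson's r of -0.62 (permutation p = 0.00036) and a Spearman's rho of -0.51 (permutation p = 0.00422). Without the 2 libraries farthest from the median fibre index, r was -0.43. Among rats 2 to 16 it was -0.78 (n = 14, permutation p = 0.00164) and among rats 17 to 32 it was -0.42 (n = 16, permutation p = 0.108). Within SM_Sed alone r was -0.66 (n = 15, permutation p = 0.00902). Within SM_ExT alone it was -0.31 (n = 15, permutation p = 0.256). The relation over all 30 libraries was 1 of 15 between the 6 indices. Its adjusted permutation p over the 15 (Benjamini-Hochberg) was 0.00270 for r and 0.0309 for rho. The Schwann cell index was related to the fibre index with an r of -0.56 (permutation p = 0.00164, adjusted 0.00820), and the fibroblast and leukocyte indices to each other with an r of 0.72 (permutation p = 4e-05, adjusted 0.000600). Of the other 4 indices, that of fibroblast markers gave 6 members by edgeR, where 3.21% of genes passed, 4 of them with a positive slope, where 2.95% of genes were, and 2 with a negative slope, where 0.265% were. The positive slopes were led by Nupr1l1, with a slope of 0.88 (SE 0.12, adjusted p = 4.5e-06), and ENSRNOG00000064136 with 0.58 (SE 0.09, adjusted p = 0.000102), and neither passed in rats 2 to 16 alone (edgeR adjusted p = 0.535 and 0.0985). The leukocyte index gave 3 members, where 3.07% of genes passed, and all 3 were among those of the fibroblast index. The Schwann cell index gave 3, where 1.94% did, and all 3 were also among those of the fibre and of the endothelial index. The adipocyte index gave none, where 0.0811% did.

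**Figure D5:**
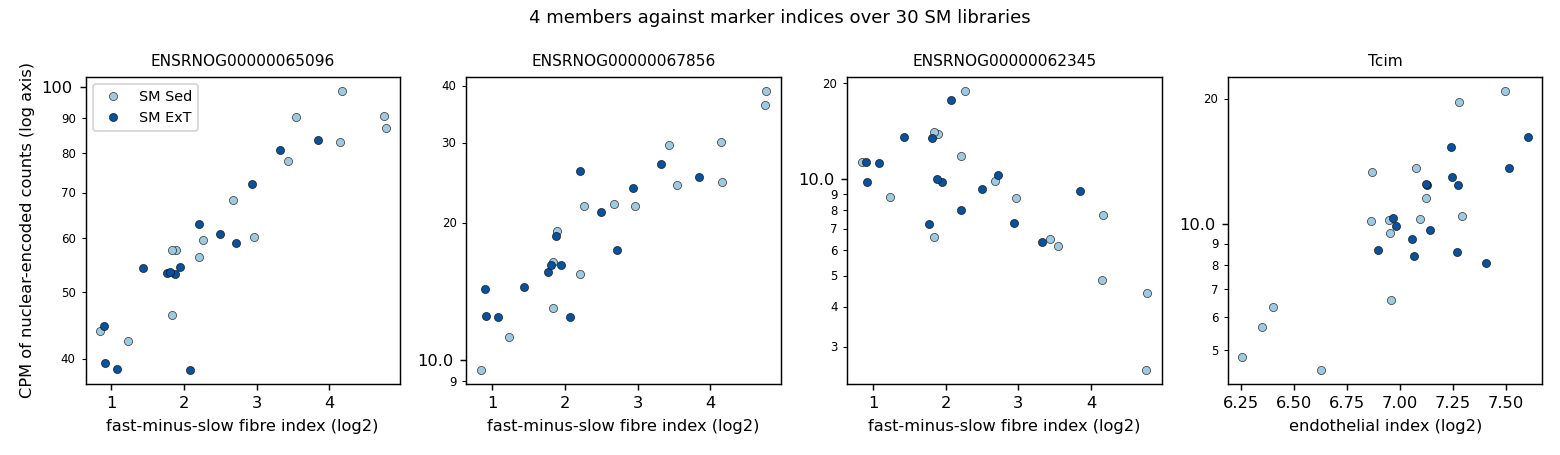
Level (CPM of nuclear-encoded counts, log axis) of ENSRNOG00000065096, ENSRNOG00000067856 and ENSRNOG00000062345 against the fast-minus-slow fibre index, and of Tcim against the endothelial index, 1 point per SM library, coloured by arm. The first 2 genes rise and ENSRNOG00000062345 falls along the fibre index. Tcim rises with the endothelial index, its 4 libraries at the low end all being SM_Sed. Slopes were not fitted within an arm. The fall of ENSRNOG00000062345 did not pass without the 2 libraries farthest from the median index.

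Some members differed in SM between the rat ranges, in a fit without the marker indices. With arm in the model, 41 of 177 members (23.2%) differed between rats 17 to 32 and rats 2 to 16 by edgeR, where 13% of genes did, 24 of them higher in the later range, where 6% of genes were, and 17 lower, where 6.99% were. ENSRNOG00000068480, among the 12 highest, ran from 81.9 through 133 to 209 CPM in the earlier range and from 72.0 through 93.0 to 115 CPM in the later, a log2 difference of -0.54 (SE 0.09, adjusted p = 0.000103 by edgeR). ENSRNOG00000058324 ran from 15.4 through 24.0 to 40.6 CPM and from 8.41 through 12.9 to 26.5 CPM, a difference of -0.85 (SE 0.16, adjusted p = 0.000575). ENSRNOG00000062350 ran the other way, from 22.7 through 28.1 to 44.4 CPM and from 28.4 through 44.1 to 74.5 CPM, with 0.56 (SE 0.10, adjusted p = 0.000462). ENSRNOG00000058324 and ENSRNOG00000062350 were chosen as the largest changes in each direction, after their values were seen. In MT 2 members differed between the ranges, ENSRNOG00000066582 with 0.27 (SE 0.08, adjusted p = 0.0435 by edgeR) and Ufm1 with 0.44 (SE 0.12, adjusted p = 0.0280), where 1.67% of 19281 genes did.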

How the data were processed

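RNA was measured in 74 libraries of rat muscle, muscle mitochondria and left ventricle, and the titles gave each library's group. The values are whole-number counts per gene that the authors deposited as 1 table per tissue, which also lists gene identifiers, names and biotypes. SM (50 ng of RNA) and MT (10 ng) libraries were made with a Zymo ribosomal-depletion kit and LV libraries (100 ng) with an Illumina stranded Ribo-Zero kit, per the labels' protocols. The submitters' processing notes name FastQC 0.74, cutadapt 4.6, STAR 2.7.11a, HTSeq and the build mRatBN7.2; the strand setting of the counting is not given in the sources used here. No coordinates are printed, because the RefSeq tables are of another build (GRCr8) and served only for names, neighbours and promoter sequences, credited to RefSeq.

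Levels are counts per 1000000 nuclear-encoded counts (CPM), leaving out 37 mitochondrial-genome genes. Tests were edgeR 4.0.16 quasi-likelihood tests (R 4.3.3, TMM, filterByExpr, robust) over all genes, with Benjamini-Hochberg adjustment and a threshold of 0.05. DESeq2 1.42.0, other scalings, filters, rat ranges and blocks by rat were alternatives. Training tests compared libraries of different rats. The interactions joined libraries of the same rats (30 for MT, 14 for LV); SM and MT deviations of a rat correlated at a median of 0.00468 and SM and LV at 0.0334, and the fit blocked by rat changed no member's call. On simulated counts for the 13570 SM genes, 77% of 1.5-fold and 95% of 2-fold changes were recovered. For the 19281 MT genes these were 76% and 98%, and for the 14488 LV genes 68% and 88%. False calls numbered 6, 8 and 12 in that order. The changed genes were drawn at random from all genes tested, not from the members, and no change under 1.5-fold was simulated. The smallest chi-square per degree of freedom between libraries of a group was 1.23, so none counted as a copy. Marker indices used a pseudocount of 0.5 CPM.

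The members, lists and named genes were chosen with earlier results of these data known. Named by rule were the 12 highest members, every called member of a training test, every member with a listed symbol, the 4 at each end of MT against SM and LV against SM in Sed rats, and 3 genes on each side of the limit; others are said to be named after their values were seen, and members with symbols are given by role. Beyond the spread between rats, p-values say nothing of technical repeats, as each rat gave 1 library per tissue.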

Additional observations from a re-analysis of the deposited data

Results flagged for a closer look

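In groups of 7 LV libraries, a highest or lowest library was marked where its gap to the nearest of the others exceeded 0.568 of the whole range (Dixon's criterion). Over 94 such groups for 49 members named in the text, 7 were marked, and chance marks about 1 in 20. In LV_ExT rat 26 stood apart in 2 members. ENSRNOG00000058324 had 1.52 CPM there, from 51 counts, against 0.105 to 0.331 CPM in the other libraries of that group, and Gpx3 had 108 CPM against 51.4 to 60.8 CPM. Fast-fibre markers summed to 3.21 CPM in that library, within the 2.15 to 5.49 CPM of its group.

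In LV_Sed, rat 32 was highest for 3 members: ENSRNOG00000068560 with 206 CPM against 199 to 201 CPM, ENSRNOG00000064974 with 3.25 CPM against 2.15 to 2.42 CPM, and ENSRNOG00000066527 with 0.0564 CPM, from 2 counts, against 0. ENSRNOG00000070562 had 0.382 CPM, from 14 counts, in LV_Sed rat 29 against 0.0898 to 0.184 CPM. ENSRNOG00000066754 had 0.0488 CPM, from 2 counts, in LV_ExT rat 17 against 0. The marks at 2 counts lie below the 3 counts taken as the smallest signal.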

How the results depend on the processing

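The count of members called for training in SM was 0 under every alternative except DESeq2 (1) and rats 2 to 16 alone (4); in MT, in LV and for both interactions it was 0 under every alternative, the replicate block included. Members at an unadjusted p under 0.05, each with the share of all genes tested in brackets, numbered 44 (23.2%) in SM for rats 2 to 16 alone and 8 (6.02%) for rats 17 to 32 alone. With library totals alone they numbered 0 in MT (0.00519%), 0 for MT against SM (2.33%) and 4 for LV against SM (3.85%); with the replicate block 6 for MT against SM (7.25%) and 2 for LV against SM (3.63%); by DESeq2 4 for LV against SM (5.2%); and 19 in LV for rats 17 to 32 alone (11.8%). The log2 change of ENSRNOG00000062369 in SM was -0.20 over all rats and 0.18 in rats 17 to 32 alone; the cause was not tested. Members called on the fibre index numbered 23 (8.74% of all genes) and 9 (4.71%) in rats 2 to 16 and 17 to 32 alone and 26 (13.7%) without the 2 farthest libraries, so that over both directions the excess of members over all genes was nearly gone in the last 2; every one of the 53 kept its sign in each. On the endothelial index the ranges gave 4 (0.492%) and 9 (2.94%), on the fibroblast index 0 (0.0745%) and 2 (1.41%) with 2 (1.53%) without the 2 farthest libraries, on the leukocyte index 0 (0.127%) and 1 (1.46%) with 1 (2.69%) when range was left out, and on the Schwann index 1 (0.410%) and 0 (0.681%) with 0 (0.810%) without the 2 farthest libraries. Fits within a range hold fewer rats. Members higher in MT without overlap numbered 1 in Sed (47.8% of all genes) and 1 in ExT rats (39.7%) in CPM of all counts. The members' median log2 ratio MT over SM was -1.002 with RLE size factors and 0.19 with library totals in Sed, -0.91 and 0.25 in ExT; LV over SM with library totals was 0.36 in Sed and 0.30 in ExT. A limit of 10 CPM gave 112 members and one of 2 CPM gave 292.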
